A study of Homo sapiens with 6 samples.

Results

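The 8 genes described here encode caspases of apoptosis, the parts of the apoptosome and an antagonist of caspase inhibitors. They are CASP2, CASP6, CASP8, CASP9, CASP10, APAF1, CYCS and DIABLO. They were taken by gene symbol in GENCODE 29, which gave 9 of the 58735 gene identifiers counted, since 2 identifiers carry the name DIABLO. RNA sequencing compared A549 cells, a long-used human lung cancer line, that received the compound B35 at 2 µM for 72 h with A549 cells left untreated for 72 h, in 3 libraries per group. The labels give the genotype of both groups as WT, name B35 as an inhibitor of the histone demethylase LSD1 and name no solvent for the untreated cells. Nothing in the labels states that the 3 libraries of a group are separate cultures. The p-values therefore reflect the spread between these libraries alone, which may be technical.

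Caspases are cysteine proteases that cut proteins after aspartate and are made as inactive precursors. In the mitochondrial route, cytochrome c leaves the mitochondrion and binds APAF1, which assembles into the apoptosome and activates caspase-9. Death receptors instead recruit caspase-8 and caspase-10 through the adaptor FADD. Both routes lead to the caspases that dismantle the cell, and DIABLO, also released from mitochondria, relieves the block that the inhibitor of apoptosis proteins place on caspases. In a living cell cytochrome c carries electrons in the respiratory chain.

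Library totals ran from 17209863 to 18530670 counts in B35 cells and from 17141478 to 18398450 counts in control cells. B35 replicate 1 stood apart from the other B35 libraries, with a chi-square per degree of freedom of 26.3 and 32.3 against them and 10.2 between those. It was the highest B35 library for 6 of the 8 genes, so its effect on results is given where a call or direction turns on it. Of 5 markers of a lung epithelial line, KRT8 and KRT18 were abundant, EPCAM was at 7.01 to 7.40 CPM in B35 cells and 3.09 to 3.60 CPM in control cells, CDH1 was at most 1.55 CPM and KRT19 at most 0.443 CPM. CPM here is the count scaled to a common library total with TMM factors. The summed level of the 5 markers was 1396 to 1739 CPM in B35 cells and 2160 to 2247 CPM in control cells. Most of this sum was KRT8, at a mean of 1117 CPM in B35 cells and 1663 CPM in control cells, and KRT18, at 456 and 526 CPM. In the edgeR test described below, KRT8 fell (adjusted p = 0.00611), EPCAM rose (adjusted p = 0.00248), and KRT18 and CDH1 did not pass. The 9 markers of blood, fibroblast and endothelial cells summed to 2.26 to 2.78 CPM in B35 cells and 2.79 to 4.48 CPM in control cells, with CD3E and HBB at 0.

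The 3 genes of the apoptosome and its caspase, CYCS, APAF1 and CASP9, fell with B35, and none of the 8 genes rose. CYCS was 1.93-fold lower, CASP9 1.60-fold lower and APAF1 1.38-fold lower than in control cells. In the fit across 14773 genes 6.59% were called lower and 15.4% were called in either direction (quasi-likelihood test in edgeR, p under 0.05 after Benjamini-Hochberg adjustment). No member was higher at an unadjusted p under 0.05 either, and DESeq2 and limma-voom called the same numbers, 3 lower and 0 higher. The other 5 genes had log2 fold changes between −0.25 and 0.19. The median log2 fold change was −0.16 over the 8 genes and 0.0067 over all genes tested. These are bulk libraries, in which fewer cells expressing a gene and less of its RNA per cell cannot be told apart. The plot of CPM by library shows every value.

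**Figure D1:**
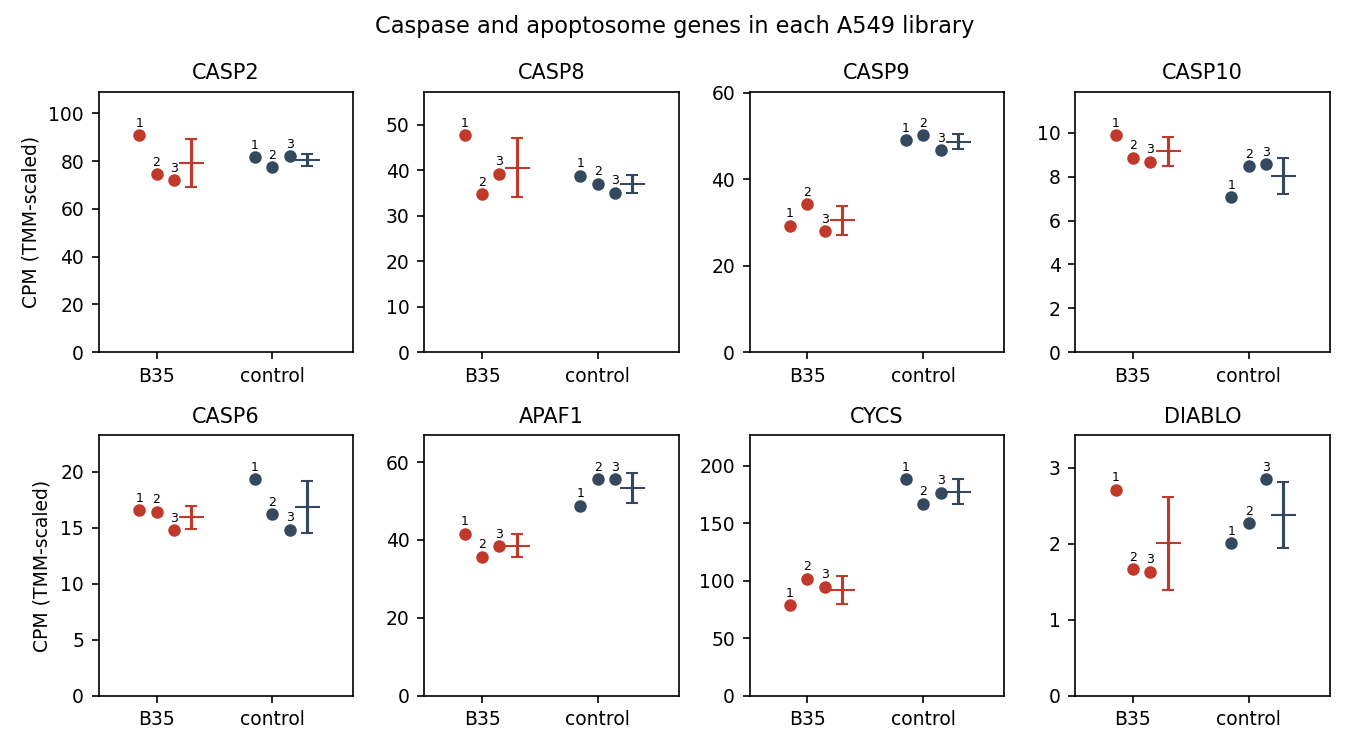
CPM of each of the 8 genes in the 3 B35 libraries (left in each panel) and the 3 control libraries (right), numbered by replicate, with the mean and SD beside the points and each axis starting at 0. CYCS, CASP9 and APAF1 lie lower in every B35 library than in any control library, while for CASP2, CASP8, CASP6 and DIABLO the groups overlap.

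CYCS, which encodes cytochrome c (ENSG00000172115, hg38 chromosome 7, 25120091 to 25125361, minus strand), had 78.8, 102 and 94.9 CPM in B35 libraries, against 189, 167 and 176 CPM in control libraries. All B35 libraries were below all controls, as they were for 17.5% of genes tested. The means were 91.9 ± 11.8 CPM in B35 cells and 177 ± 10.8 CPM in control cells (SD, n = 3 each), from 5031 and 9369 counts. The log2 fold change was −0.95 ± 0.11 (SE, with edgeR adjusted p = 0.000589), lower than in all but 0.745% of genes tested. Human cells carry many processed pseudogenes of CYCS, and 40 are annotated in GENCODE 29, of which 10 had a count. Together they amounted to 0.371% to 2.11% of the CYCS count in a library. With their counts added to CYCS, an alternative chosen after seeing the data, the log2 fold change was −0.94. How reads matching both CYCS and a pseudogene were counted is not given, so this sum cannot show the part of such reads.

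The sequences just upstream of CYCS, APAF1 and CASP9 are shown because these 3 genes fell together. They come from RefSeq (GRCh38.p14), which had a promoter for 7 of the 8 genes, and are the stretches of the 250 bases before an annotated start that lie outside the gene's GENCODE exons. They read 5′ to 3′ on the gene's strand, with matches to the motifs searched in capitals. For CASP9 the more upstream of 2 RefSeq start sites is used, which lies inside the longer GENCODE gene. The bases just after this site were found in no GENCODE transcript of CASP9, while those after the other site were.
CYCS, chr7:25125362-25125510, minus strand: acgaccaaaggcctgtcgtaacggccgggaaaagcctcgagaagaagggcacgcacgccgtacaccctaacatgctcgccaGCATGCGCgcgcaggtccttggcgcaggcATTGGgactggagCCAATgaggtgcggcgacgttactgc
APAF1, chr12:98645040-98645140, plus strand: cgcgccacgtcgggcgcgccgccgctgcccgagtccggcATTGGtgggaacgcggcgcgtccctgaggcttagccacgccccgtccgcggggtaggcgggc
CASP9, chr1:15524890-15525040, minus strand: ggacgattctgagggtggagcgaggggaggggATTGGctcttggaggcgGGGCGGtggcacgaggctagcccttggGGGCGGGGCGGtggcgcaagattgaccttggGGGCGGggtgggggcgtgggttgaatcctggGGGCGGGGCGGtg

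The motifs, sought on both strands of the full 250 bases, were GCGCATGC for NRF1, CCAAT for NF-Y, GGGCGG for SP1, TTTCCCGC or TTTGGCGC for E2F and TGACGTCA for CREB. None contains another, though copies of GGGCGG can overlap each other. NRF1 is known from the rat cytochrome c gene as an activator of nuclear genes for mitochondrial proteins. Its letters occurred at bases −169 to −162 of CYCS, counted back from the start site, and in 2.63% of 35116 promoter windows. CYCS also held CCAAT in both orientations, at −140 to −136 and −127 to −123, a motif found in 32.0% of windows. The APAF1 window held CCAAT and GGGCGG, each in the reverse complement, and the CASP9 window held CCAAT in the reverse complement and 8 copies of GGGCGG, a motif in 42.6% of windows. The window of the other CASP9 start site also held 8 copies of GGGCGG, but CCAAT was not among its letters. Windows of CASP2, CASP8 and DIABLO, which did not pass, held CCAAT too. The windows of CYCS, APAF1 and CASP9 had 31, 38 and 25 CpG dinucleotides, against a median of 11 over all windows. Those windows were not limited to genes tested here, so the median is not that of expressed genes. Genes that did not pass went both ways. The window of the first CASP2 start site had 29, that of CASP6 had 26 and the 4 of DIABLO had 22, 11, 29 and 29. The window of the second CASP2 start site had 2, and the 3 of CASP8 had 6, 5 and 5. A match is a description of the letters and shows no binding.

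APAF1, the scaffold of the apoptosome (ENSG00000120868, chromosome 12, 98645141 to 98735433, plus strand), had 41.7, 35.7 and 38.4 CPM in B35 libraries, against 48.8, 55.7 and 55.5 CPM in control libraries. All B35 libraries were again below all controls. The log2 fold change was −0.47 ± 0.10 (SE, with edgeR adjusted p = 0.0134), from means of 38.6 ± 2.99 CPM in B35 cells and 53.3 ± 3.95 CPM in control cells (SD, n = 3 each). The call was lost without control replicate 2 (edgeR adjusted p = 0.0569), control replicate 3 (0.0805) or B35 replicate 2 (0.0551), with log2 fold changes of −0.44, −0.44 and −0.42. APAF1 shares 9.48% of its exon bases with ANKS1B on the other strand, a gene with 284 counts over all 6 libraries.

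CASP9, the initiator caspase that the apoptosome activates (ENSG00000132906, chromosome 1, 15490832 to 15526534, minus strand), had 29.2, 34.2 and 28.0 CPM in B35 libraries, against 49.1, 50.1 and 46.7 CPM in control libraries. The highest B35 library lay below the lowest control. The means were 30.5 ± 3.28 CPM in B35 cells and 48.6 ± 1.72 CPM in control cells (SD, n = 3 each), a log2 fold change of −0.68 ± 0.11 (SE, with edgeR adjusted p = 0.00287). Its call held when any 1 library was left out, as did that of CYCS. It shares 2.01% of its exon bases with CELA2B, which had 8 counts in all.

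The initiator caspases outside the apoptosome did not pass the test. CASP2, which is activated on a platform of PIDD1 and CRADD (ENSG00000106144, chromosome 7, 143288215 to 143307696), had 90.8, 74.7 and 72.1 CPM in B35 libraries, against 81.6, 77.4 and 82.1 CPM in control libraries. B35 replicate 1 was above all controls and the other B35 libraries below them. The log2 fold change of CASP2 was −0.021 ± 0.11 (SE, with edgeR adjusted p = 0.923), and its sign turned without B35 replicate 2 or 3, or with upper-quartile scaling.

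CASP8, the caspase of death receptor complexes (ENSG00000064012, chromosome 2, 201233443 to 201287711), had 47.7, 34.8 and 39.3 CPM in B35 libraries, against 38.9, 37.0 and 35.1 CPM in control libraries. Its groups overlapped, and B35 replicate 1 was the highest library. With all libraries CASP8 had a log2 fold change of 0.13 ± 0.12 (SE, with edgeR adjusted p = 0.513), and it was -6.99e-05 without B35 replicate 1. CASP10, a close relative of caspase-8 that lies next to it on chromosome 2 (ENSG00000003400, 201182881 to 201229406), had 9.89, 8.88 and 8.70 CPM in B35 libraries, against 7.08, 8.47 and 8.56 CPM in control libraries. Every B35 library was above every control, as for 18.8% of genes tested, but the gap between 8.70 and 8.56 CPM was small. The log2 fold change of CASP10 was 0.19 ± 0.15 (SE, with edgeR adjusted p = 0.431), which did not pass.

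CASP6, an effector caspase known for cutting nuclear lamin A (ENSG00000138794, chromosome 4, 109688622 to 109703583), had 16.6, 16.4 and 14.8 CPM in B35 libraries, against 19.3, 16.2 and 14.8 CPM in control libraries. The groups overlapped, with control replicate 1 above the rest. CASP6 had a log2 fold change of −0.078 ± 0.13 (SE, with edgeR adjusted p = 0.745), which became 0.034 without control replicate 1. CASP6 shares 5.40% of its exon bases with MCUB on the other strand, a gene with 3697 counts over all 6 libraries. CASP6 itself had 869 counts in B35 libraries and 889 in control libraries. The part of this overlap in the counts was not tested.

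DIABLO, also called Smac, had few counts. Its main identifier (ENSG00000184047, chromosome 12, 122207663 to 122226568, minus strand) had 48, 30 and 31 counts in B35 libraries, against 36, 41 and 48 counts in control libraries. The groups overlapped, at 2.71, 1.67 and 1.63 CPM in B35 cells and 2.01, 2.27 and 2.85 CPM in control cells. The log2 fold change was −0.25 ± 0.29 (SE, with edgeR adjusted p = 0.610), the largest SE of the 8 genes. It was −0.52 without B35 replicate 1 and −0.099 without control replicate 3, and did not pass in either fit. The second identifier named DIABLO (ENSG00000284934) had 0, 0 and 2 counts in B35 libraries, against 2, 1 and 4 counts in control libraries, and was not tested. It shares 85.3% of its exon bases with the main identifier, and the genes AC048338.1 and B3GNT4 overlap both. The sources used here do not give how reads in shared exons were counted, and the part of this overlap in the low counts was not tested. With both identifiers summed, an alternative chosen after seeing the data, the log2 fold change was −0.30 and did not pass (edgeR adjusted p = 0.519).

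The levels per exon length, as the FPKM values deposited by the authors, place the 8 genes on 1 scale. CYCS was the highest in both groups, at 20.3 ± 2.67 FPKM in B35 cells and 39.6 ± 2.41 FPKM in control cells (SD, n = 3 each). CASP2 came next, at 9.73 ± 1.25 FPKM in B35 cells and 9.97 ± 0.336 FPKM in control cells. In B35 cells the order went on with CASP6 (8.07 FPKM), CASP9 (5.70 FPKM), CASP8 (5.52 FPKM) and APAF1 (4.81 FPKM). In control cells it went on with CASP9 (9.19 FPKM), CASP6 (8.60 FPKM), APAF1 (6.72 FPKM) and CASP8 (5.08 FPKM). The libraries of CASP9 and CASP8, and of CASP8 and APAF1, overlapped in B35 cells, and those of CASP6 overlapped with both CASP9 and CASP2 in control cells. CASP10 (1.19 FPKM in B35 cells and 1.05 FPKM in control cells) and DIABLO (0.292 FPKM in B35 cells and 0.349 FPKM in control cells) were the lowest, as the plot of FPKM on a log axis shows. The value of DIABLO is that of its main identifier, and the part of its shared exons in this low level was not tested.

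**Figure D2:**
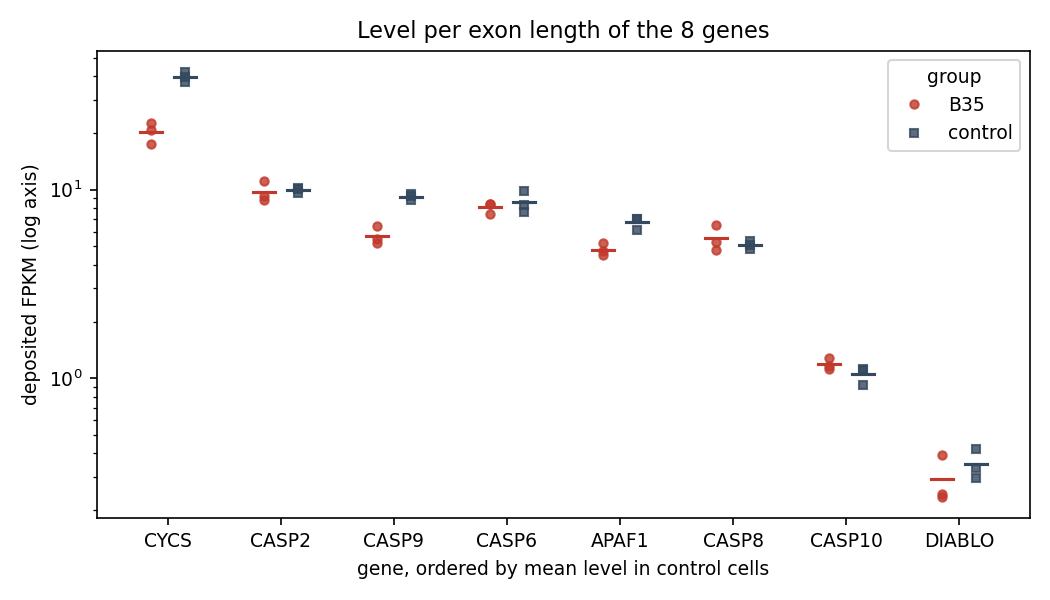
Deposited FPKM of each gene on a log axis, with B35 libraries as circles and control libraries as squares, a line at each mean, and genes ordered by their mean in control cells. CYCS is the highest gene in both groups, and DIABLO, at 0.236 to 0.394 FPKM in B35 cells and 0.295 to 0.421 FPKM in control cells, is the lowest. The part of the shared exons of DIABLO in its low level was not tested.

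Ratios of 2 genes within a library do not depend on the scaling between libraries. The ratio of CYCS to APAF1, in counts per kilobase, was 3.36, 5.06 and 4.39 in B35 libraries, against 6.86, 5.32 and 5.64 in control libraries. Every B35 library was lower, but B35 replicate 2 and control replicate 2 were close. The ratio of CASP9 to APAF1 was 1.05, 1.44 and 1.09 in B35 libraries, against 1.51, 1.35 and 1.26 in control libraries, and these overlapped. XIAP, the inhibitor that binds caspase-9, was at 67.8 ± 2.97 CPM in B35 cells and 64.5 ± 1.14 CPM in control cells and did not pass (log2 0.073 ± 0.088, edgeR adjusted p = 0.626). Its ratio to CASP9 was 1.41, 1.11 and 1.41 in B35 libraries, against 0.752, 0.761 and 0.811 in control libraries, and every B35 library was higher than every control. As XIAP did not pass and CASP9 fell, this ratio restates the fall of CASP9. The ratio of CASP8 to CASP10 overlapped between the groups. So did that of CFLAR, a listed regulator of initiator caspases, to CASP8. No test was run on these ratios.

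Other genes of the pathway moved both ways. Of 31 tested among 34 listed, 5 rose and 4 fell, where 8.82% of all genes tested were called higher and 6.59% lower. The median log2 fold change of these 31 genes was −0.0045. The plot of fold changes by list shows them beside the 8 genes.

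**Figure D3:**
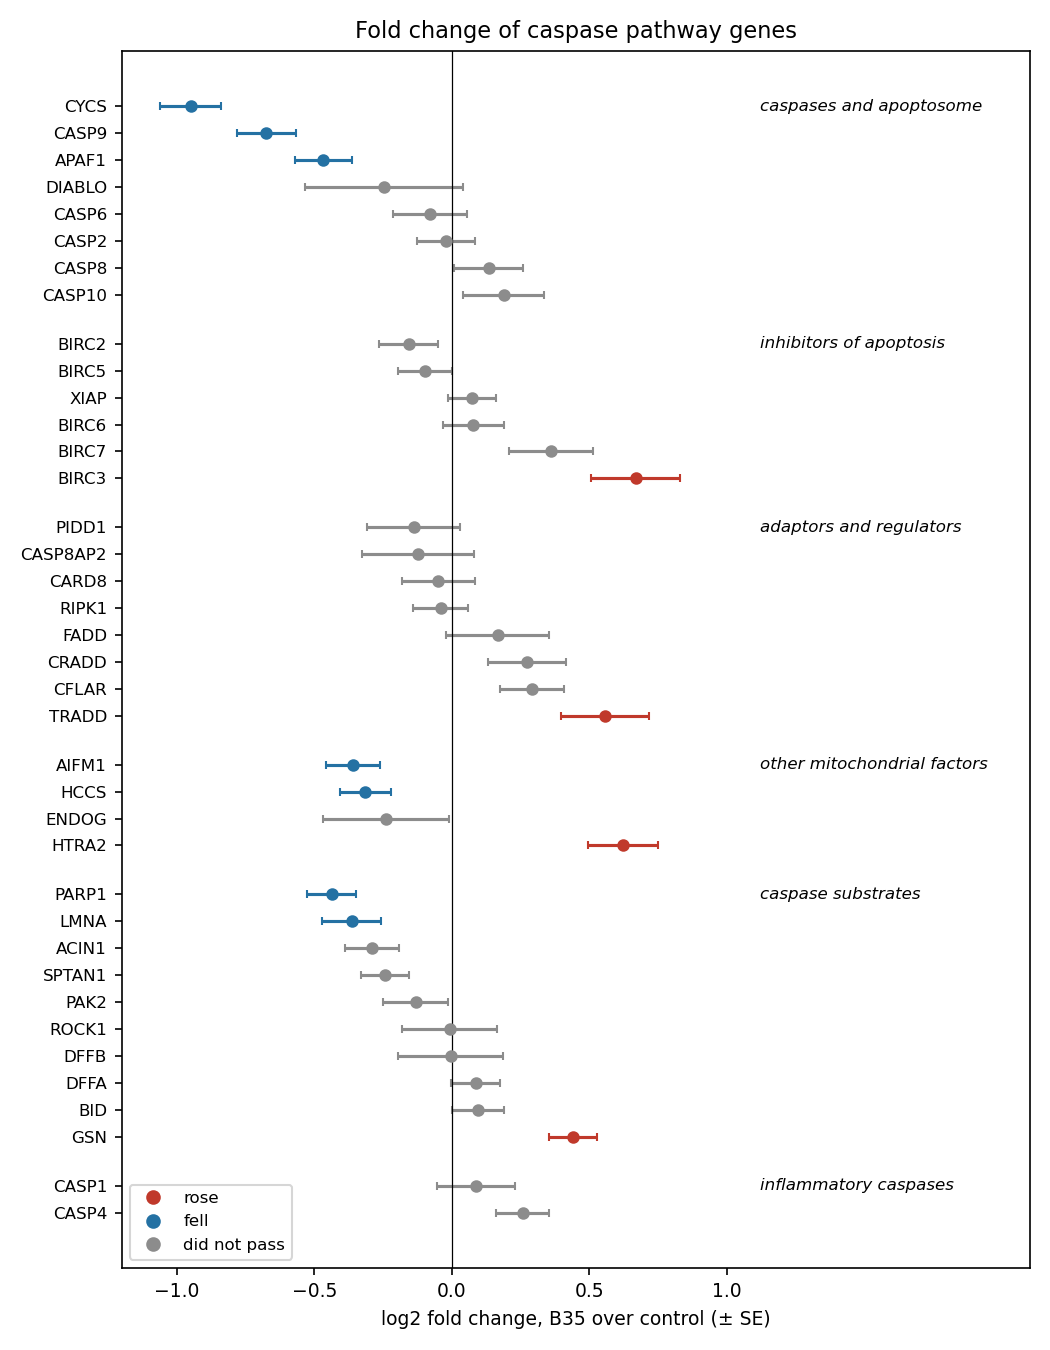
Log2 fold change of B35 over control with its SE for the 8 genes (top block) and the other tested pathway genes by list, coloured by whether they rose, fell or did not pass the edgeR test. CYCS, at −0.95, is the lowest of all, and CASP14, which had no count in control cells, is left out.

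Among 6 tested inhibitors of apoptosis proteins, 1 rose and none fell, and none was lower at an unadjusted p under 0.05 or in DESeq2 or limma-voom. At an unadjusted p under 0.05, 2 were higher, BIRC3 and BIRC7 (log2 0.36, edgeR adjusted p = 0.135, not passing). BIRC3, a ubiquitin ligase of TNF receptor complexes and a known NF-kB target, had 212, 134 and 167 CPM in B35 libraries, against 128, 95.2 and 100 CPM in control libraries. All B35 libraries were higher, at 1.59-fold (log2 0.67 ± 0.16, edgeR adjusted p = 0.0201), and the call was lost without control replicate 2 (0.0759) or 3 (0.0937). Among 8 tested adaptors and regulators of initiator caspases, 1 rose and none fell, and none was lower by the same other measures. At an unadjusted p under 0.05, 2 were higher, TRADD and CFLAR (log2 0.29, edgeR adjusted p = 0.115, not passing). TRADD, the adaptor of TNF receptor 1, was at 27.5 ± 5.94 CPM in B35 cells and 18.7 ± 1.65 CPM in control cells (SD, n = 3 each), 1.47-fold higher (edgeR adjusted p = 0.0401). Its call was lost in limma-voom and without any 1 library except B35 replicate 1 (edgeR adjusted p up to 0.163).

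Of 4 tested genes for other mitochondrial death factors and cytochrome c maturation, 1 rose and 2 fell. HTRA2, a mitochondrial protease that also binds inhibitors of apoptosis proteins, had 26.5, 32.9 and 35.1 CPM in B35 libraries, against 19.4, 20.7 and 21.3 CPM in control libraries. The groups did not overlap, and HTRA2 was 1.54-fold higher (log2 0.62 ± 0.13, edgeR adjusted p = 0.00893), though 36.9% of its exon bases lie in AUP1 or LOXL3. AUP1 had 9480 counts and LOXL3 398 counts over all 6 libraries, while HTRA2 had 1728 in B35 libraries and 1080 in control libraries. The part of this overlap in the counts of HTRA2 was not tested. AIFM1, apoptosis-inducing factor, was at 62.9 ± 5.70 CPM in B35 cells and 80.7 ± 3.36 CPM in control cells, 1.28-fold lower (edgeR adjusted p = 0.0335). HCCS, the lyase that attaches haem to cytochrome c, was at 69.0 ± 4.83 CPM in B35 cells and 85.7 ± 2.46 CPM in control cells, 1.24-fold lower (edgeR adjusted p = 0.0427, SD, n = 3 each). The call of AIFM1 was lost without any 1 control or without B35 replicate 3 (edgeR adjusted p up to 0.121). That of HCCS was lost without any 1 library except B35 replicate 1, with upper-quartile scaling and with no filter beyond 1 count (edgeR adjusted p up to 0.187).

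Of 10 tested caspase substrates, 1 rose and 2 fell. PARP1, a DNA repair enzyme cut during apoptosis, was at 404 ± 29.6 CPM in B35 cells and 546 ± 12.5 CPM in control cells (SD, n = 3 each), 1.35-fold lower (edgeR adjusted p = 0.00851, and 0.0635 without control replicate 3). LMNA, the gene of lamin A and C, was at 818 ± 117 CPM in B35 cells and 1054 ± 24.9 CPM in control cells, 1.29-fold lower (edgeR adjusted p = 0.0451). Its call was lost without any 1 control or without B35 replicate 3 (edgeR adjusted p up to 0.132). GSN, the actin-severing protein gelsolin, was at 80.1 ± 1.69 CPM in B35 cells and 59.1 ± 2.06 CPM in control cells, 1.36-fold higher (edgeR adjusted p = 0.00812). Of 3 tested inflammatory and differentiation caspases, CASP14 rose, with 157 counts over the B35 libraries and none over the controls, which is at least 50.5-fold higher when the control group as a whole is set at 3 counts. CASP1 and CASP4 did not pass, at 33.9 and 82.8 CPM in B35 cells and 32.0 and 69.3 CPM in control cells.

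Across the 6 libraries, log2 CPM of CASP9 and APAF1 had a Pearson's r with CYCS of 0.96 and 0.83. CASP6, CASP2 and CASP8 had r of 0.30, −0.052 and −0.57, and CASP10 and DIABLO were below 10 CPM and not ranked. Among 9845 genes with a mean of at least 10 CPM, the 5 most like CYCS were LRRC59, ACOT7, DCAF15, PDCL3 and PGRMC1, with r from 0.999 to 0.997. These values describe 6 libraries in 2 groups that share a similar depth, and the difference between the groups enters each r. Within each group the libraries of APAF1 ran in the reverse order of those of CYCS. The r of 0.83 therefore rests on the difference between the groups and does not show that the 2 genes vary together within a group.

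**Figure D4:**
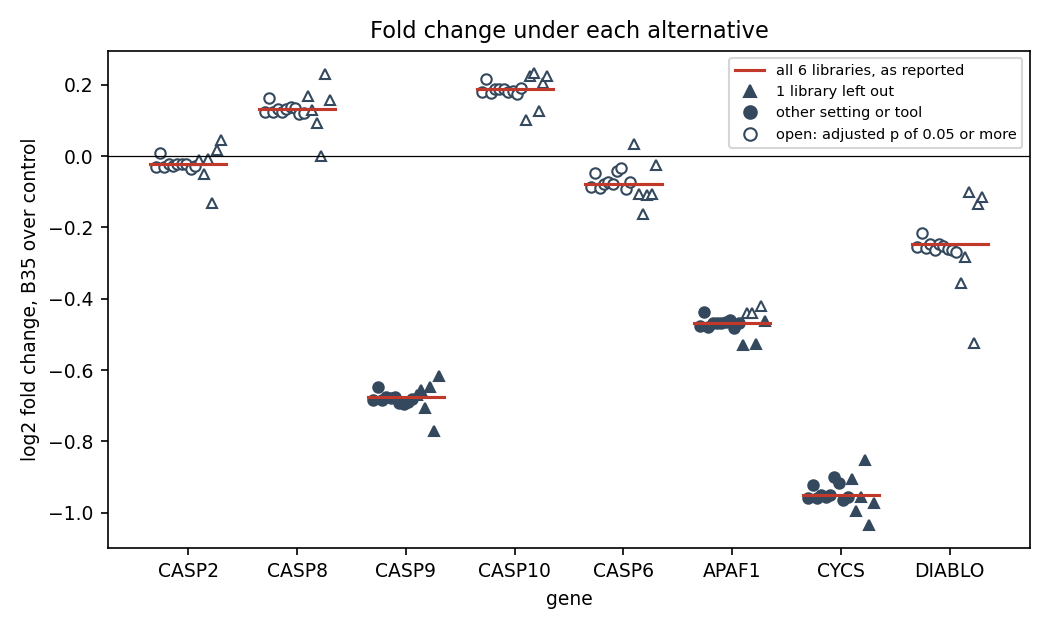
Log2 fold change of B35 over control for each gene with all 6 libraries (line), with 1 library left out (triangles) and under other settings and tools (circles), filled where the adjusted p was under 0.05. CYCS and CASP9 are filled throughout, at −1.03 to −0.85 and −0.77 to −0.62, APAF1 is open in 3 fits, and no point of the other 5 genes is filled.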

How the data were processed

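The submitters' processing notes name HISAT2 2.0.5, featureCounts 1.5.0-p3 and hg38. The sources used here do not give the annotation or the strand setting. The files deposited by the authors hold whole-number counts and FPKM values per gene. The FPKM values, as the authors deposited them, served only to compare levels between genes. Symbols, exon lengths and overlaps came from GENCODE 29, which held all identifiers.

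Counts of all 6 libraries were tested in R 4.3.3 with edgeR 4.0.16 (two-sided quasi-likelihood test). Low genes were dropped with filterByExpr, at a minimum count of 10 and a total of 15, libraries were scaled by TMM, and p-values had Benjamini-Hochberg adjustment over 14773 genes. The SE was the absolute log2 fold change over the root of its F statistic. Correlations used log2 CPM with a prior count of 2. Simulated data for the same comparison had 14587 genes in the fit, with 82 changed 1.5-fold, 58 changed 2-fold and 59 changed 4-fold. The test found 37.8%, 84.5% and 94.9% of these, and 12 of its 148 calls were false. In the real data 2276 genes were called, so these rates need not hold there.

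Other settings tried were scaling by relative log expression or the upper quartile, other low-count filters, each library left out, robust dispersion, a replicate number term, DESeq2 1.42.0, limma-voom (limma 3.58.1) and a fit with GC content and exon length trends taken out of each library. The floor of 3 counts covers counting error only. The members, lists and the trend removal were chosen with earlier results of these data known. The rule for named genes took all 8 members, every pathway gene that passed, the 2 highest of a list where none passed, and the 5 genes most correlated with the member of smallest adjusted p. XIAP, BIRC7, CFLAR, CASP1 and CASP4 were named after their values were seen, and so were the ratios. One list of pathway genes is not reported here.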

Additional observations from a re-analysis of the deposited data

How the results depend on the processing

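The calls of CYCS and CASP9 held in all 16 alternatives and that of APAF1 in 13, and no member rose in any of them. With GC content and exon length trends taken out of each library, 3891 genes changed (1937 higher and 1954 lower, against 1303 and 973), 7 pathway genes rose and 6 fell, and 3803 genes changed, 7 rose and 6 fell with the replicate block as well. With the replicate block alone, 2855 genes changed, against 2276 without it, 3 members fell, 0 rose, 5 pathway genes rose and 4 fell, so it changed no call of a member. Same-numbered libraries did not deviate together (correlations of 0.16, 0.016 and −0.063), and not every library correlated best with its own number, so the numbers were not taken as pairs. With 1 library left out, 881 to 3342 genes changed, 2 to 3 members fell, 3 to 6 pathway genes rose and 0 to 5 fell. The fewest pathway falls, 0, came without control replicate 3, and 1 fell when control replicate 1 or 2 or B35 replicate 3 was left out. These fits use fewer libraries. Signs turned only in members that did not pass. CASP2 ranged from −0.13 to 0.044 with 1 library left out and was 0.010 with upper-quartile scaling, CASP8 ranged from -6.99e-05 to 0.23, and CASP6 from −0.16 to 0.034. The cause was not tested. DIABLO, at 30 to 48 counts in a library, had the widest error.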

Other observations

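Cytochrome c also belongs to the respiratory chain, so the nuclear genes of complexes I to IV were read from the same fit, in a list taken by symbol after the value of CYCS was seen and therefore not tested as a list. Of 61 tested, 8 fell and 0 rose in the edgeR test (0 at an unadjusted p under 0.05, and 0 in DESeq2 and limma-voom), where 6.59% of all genes tested were called lower and 8.82% higher. The median log2 fold change was −0.23, against 0.0067 over all genes tested, and −0.13 without B35 replicate 1. The number that fell was 1 to 12 with 1 library left out and 6 to 24 under the other settings, and 1 gene rose without B35 replicate 1. The number called lower over all genes moved too. It was 294 of 15185 without control replicate 3, where 1 gene of the list fell. With the replicate block and trends removed it was 1918 of 14773, where 24 of the list fell. The lowest was COX7B, a small subunit of cytochrome c oxidase, at 116 CPM in B35 cells and 184 CPM in control cells (log2 −0.67 ± 0.13, edgeR adjusted p = 0.00609). CYCS, at −0.95, was below all of them.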
